A study of Mus musculus with 8 samples.

Results

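The probes described here are the bright, unsaturated ones of a small-RNA array hybridised with mouse heart RNA. Of the 1569 named probes on each array, 105 were chosen by their readout: the code is a plain number or starts with ORB, the signal averaged at least 1000 intensity units over the 4 saline arrays, and no spot on any of the 8 arrays reached the scanner ceiling of 65535. The signal of a probe is the mean, over its 3 spots, of the foreground minus the local background. Because the saline level chose the members, that level is given as a description and not tested. Codes made of 2 numbers joined by a low line were admitted too, but neither of the 2 such probes reached the threshold. The members comprise 81 of 896 probes with digit codes and 24 of 473 probes with ORB codes. The deposited files do not pair codes with microRNA names, so each member is named by its code, no sequence is shown, and the heart label could not be checked against heart microRNAs.

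The hearts came from 8 female C57BL/6 mice aged 12 weeks, an inbred strain with no engineered allele in the labels. In the LPS group, 4 mice received lipopolysaccharide, a component of bacterial cell walls, at 5 mg per kg by injection into the peritoneal cavity. In the saline group, 4 mice received saline by the same route. All were killed 8 h after the injection, and the hearts were flushed with buffered saline before RNA was taken. Whole heart tissue holds many cell types, so fewer cells of a type and less RNA per cell cannot be told apart. The LPS arrays shared 1 slide and the saline arrays another. The headers give the same detector gain of 550 for both and a laser power of 3.85 for the LPS slide and 3.96 for the saline slide. Slide and treatment therefore cannot be told apart in any difference given here.

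MicroRNAs are short RNAs that guide a silencing complex to messenger RNAs and lower their translation or stability. Heart muscle is known for a small set of very abundant microRNAs made mainly in muscle cells, beside others made in most cell types. LPS is sensed by Toll-like receptor 4, and the signalling that follows induces several microRNAs that restrain the inflammatory response. A probe's brightness depends on how well it binds its target as well as on the amount of RNA, so an order of signals is not an order of RNA amounts.

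Of the 105 members, 4 passed the threshold through 1 spot on 1 saline array. Probe 2842 had 11, 19, 42.3 and 15 intensity units in LPS replicates 1 to 4 and 12.7, 11.3, 21.3 and 14281 in saline replicates 1 to 4. Its bright spot on saline replicate 4 had a foreground of 42910 over a local background of 93, while the other 2 spots on that array had 80 and 82. The 23 other spots of this probe lay between 71 and 106.

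Probe 2986 had 17.3, 15.3, 18.3 and 23 intensity units in LPS replicates 1 to 4 and 17.7, 8737, 21 and 17.7 in saline replicates 1 to 4. Its bright spot, with a foreground of 26240, was on saline replicate 2. Probe ORB1055 had 12, 12.3, 17 and 9.33 in the LPS replicates and 6775, 10.3, 11 and 11.3 in the saline replicates, with a bright spot of 20391 on saline replicate 1. ORB1031, which falls outside the rule for named probes and was picked after its values were seen, had 4, 6, 7.33 and 8.67 in the LPS replicates and -1, 5236, 3.33 and 5 in the saline replicates. Its bright spot of 15762 was on saline replicate 2. On the other 7 arrays these 4 probes were close to the local background. All 72 member spots with the scanner software's not-found flag, of 2520 member spots, belonged to these 4 probes. The other 101 members are called the steady members below, and results that rest on the 4 are given with and without them. The name says only that these 101 do not rest on 1 spot. Their brightest array was up to 7.66 times as bright as their dimmest.

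Another 10 probes of the same code types averaged over 1000 in saline and were left out for a saturated spot. Of these, 5 were saturated in all 24 spots and have no measurable order. Probes 3104 and 3205 were left out for a single saturated spot each, and their 23 other spots had foregrounds of 62 to 80 and 61 to 78. The remaining probe with 1 saturated spot, 1483, was bright throughout, with foregrounds of 30022 to 63351 in its 23 other spots. These 3 probes were singled out after their values were seen.

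At the threshold, the dimmest members were 3192, 1315 and ORB_0608014, with saline means of 1060, 1022 and 1010 ± 239 (SD for ORB_0608014, n = 4). Just outside lay 1282, ORB_1008013 and 1886, with saline means of 982, 979.8 and 975 ± 68.5 (SD for 1886, n = 4). The gap between the 2 sides is smaller than the spread between the mice. Probe 3192 had 955, 1263, 1290.3 and 866 intensity units in LPS replicates 1 to 4 and 1209, 1282, 952 and 799 in saline replicates 1 to 4. Probe 1315 had 998, 1806, 1306 and 693 in the LPS replicates and 1358, 807, 1298 and 625 in the saline replicates. Each fell under the threshold on some arrays of both groups. ORB_0608014 reached 1000 on a single array, saline replicate 4: it had 606, 857, 997 and 464 in LPS replicates 1 to 4 and 894, 883, 894 and 1369 in saline replicates 1 to 4.

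The 105 members carried close to 50% of the signal of each array's named probes. The share was 52.9%, 56.0%, 56.6% and 48.7% in LPS replicates 1 to 4 and 54.6%, 53.2%, 51.1% and 49.7% in saline replicates 1 to 4. The means were 53.5% ± 3.61 in LPS and 52.2% ± 2.18 in saline (mean ± SD, n = 4 each). The ranges of the 2 groups overlap, and the difference of the means is smaller than either SD. Saturated spots are cut at the ceiling in the total, so in that respect the members' shares are upper bounds. Replicate 4 of each group had the lowest total signal and the lowest member share of its group. It also had the highest share from probes with a saturated spot, 31.7% in LPS and 30.6% in saline. The part of saturation in the spread of the shares was not tested. Without the 4 probes bright in 1 spot the saline mean was 51.7%, against 53.5% for the LPS mean. Members with digit codes carried 43.6% ± 3.26 in LPS and 42.4% ± 2.53 in saline, and members with ORB codes carried 9.91% ± 0.810 in LPS and 9.80% ± 1.09 in saline (mean ± SD, n = 4 each).

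Much of the remaining signal came from a few probes. The 11 named probes with a saturated spot carried 28.3% ± 2.77 in LPS and 28.5% ± 2.05 in saline. For the probes bright throughout these are lower bounds, because saturated spots are cut at the ceiling. The saline share also holds the single saturated spots of 3104 and 3205. These raised the mean signals of the 2 probes to 21818 on saline replicate 1 and 21823 on saline replicate 2. The 32 equally bright and unsaturated probes with IDT or IGN codes carried 14.0% ± 1.20 in LPS and 15.0% ± 0.271 in saline (mean ± SD, n = 4 each). Relative to unsaturated probes alone, the members carried 74.6% ± 2.29 in LPS and 72.9% ± 1.02 in saline. The spots of a member lay in 1 block of an array, and each of the 6 blocks held 14 to 22 members.

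Signal among the members was concentrated at the top. In saline, 16 members carried 50% of the members' signal and 52 carried 90%. Saline means reached 10000 or more in 36 members, lay from 2000 to 10000 in 33 and were under 2000 in 36. The brightest was 49.99 times as bright as the dimmest. The 10 brightest in saline carried 37.3% ± 0.856 of the members' signal in LPS and 35.8% ± 0.916 in saline (mean ± SD, n = 4 each). Of the steady members, 83 reached 1000 on all 8 arrays, and the lowest signal of any steady member on any array was 459.

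Probe 1022 was the brightest member in saline, with 46388, 57282, 55399 and 38797 intensity units in LPS replicates 1 to 4 and 60317, 54486, 48635 and 38495 in saline replicates 1 to 4. Its values in the 2 groups cover nearly the same range, with replicate 4 lowest in each. It was the brightest member on LPS replicate 2 and on saline replicates 1, 2 and 3. Probe ORB_1008002 was brightest on LPS replicates 1 and 3, probe 2852 on LPS replicate 4 and probe 3174 on saline replicate 4. ORB_1008002 had 53098, 52163, 63669.7 and 32781 in the LPS replicates and 54697, 41561, 30686 and 35614 in the saline replicates. The groups overlap, although 3 LPS values lie above 3 saline values.

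Probe 3111, with the next highest saline mean, averaged 37297 ± 7341 in LPS hearts and 40913 ± 3822 in saline hearts (mean ± SD, n = 4 each). Probe 2733 had 42093, 53711, 48262 and 28702 intensity units in LPS replicates 1 to 4 and 54970, 36116, 35547 and 25575 in saline replicates 1 to 4, a spread of over 1.5-fold within each group. Probe 3174 had 26669.7, 36380, 44920 and 35943 in the LPS replicates and 37241, 36662, 28286 and 44149 in the saline replicates. Unlike 1022 and 2733, it was higher in saline replicate 4 than in any other saline array.

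Probes 1044 and 3024 followed the overall brightness of the arrays. Probe 1044 averaged 38997 ± 9154 in LPS hearts and 35582 ± 3446 in saline hearts (mean ± SD, n = 4 each). Probe 3024 had 34335, 41356, 44338 and 28917 in LPS replicates 1 to 4 and 41770.3, 38171, 33347 and 28765 in saline replicates 1 to 4. On both slides its values fell with those of the array as a whole, and replicate 4 was lowest.

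Probe 1030 averaged 40004 ± 9058 in LPS hearts and 35422 ± 10763 in saline hearts (mean ± SD, n = 4 each), and probe 2280 averaged 35539 ± 7396 in LPS hearts and 30077 ± 6385 in saline hearts (mean ± SD, n = 4 each). Probe 2852 had 31692, 42938, 40062 and 43633 in LPS replicates 1 to 4 and 32357, 36011, 29957 and 33066 in saline replicates 1 to 4. Its LPS replicate 1 lay inside the saline range and its other 3 LPS values above it. For each of these 10 brightest members the ranges of the 2 groups overlap.

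The order of the members was nearly the same on all arrays. Spearman's rho across the 101 steady members was 0.970 to 0.994 between LPS arrays (6 pairs), 0.916 to 0.986 between an LPS and a saline array (16 pairs) and 0.929 to 0.983 between saline arrays (6 pairs). The low ends of the last 2 ranges came from saline replicate 4. Its pairs gave 0.916 to 0.946 with LPS arrays and 0.929 to 0.953 with saline arrays. Among pairs without it, the lowest was 0.960 between an LPS and a saline array and 0.971 between saline arrays. These correlations are descriptions across probes of the same arrays, chosen for a high saline signal, and carry no p. With all 105 members the saline pairs gave 0.882 to 0.953, and saline replicates 1, 2 and 4 each held at least 1 of the probes bright in 1 spot. Between the group means, rho was 0.981 over the steady members and 0.957 over all 105. Between 8 and 10 of the 10 brightest members in saline were among the 10 brightest on each array.

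Ranked among the 101 steady members, 78 moved by 5 places or fewer between the group means, with a median of 3 places, and 7 moved by more than 10. ORB_1209024 stood at place 46 in LPS and 68 in saline, and ORB_1209019 at place 57 in LPS and 78 in saline. In the other direction, 2967 stood at place 87 in LPS and 70 in saline, and 1755 at place 39 in LPS and 25 in saline. With the 4 probes bright in 1 spot ranked as well, 71 of the 101 moved by 5 places or fewer and 8 by more than 10. Among all 105, the largest moves were those of 2842, 2986 and ORB1055, which rest on 1 spot each.

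The spread between the arrays of a group was larger than the spread between the spots of an array for most members. Each mouse had 1 array, so the spread between mice also holds labelling, hybridisation and array differences and cannot be told apart from them. Same-numbered replicates also had the same block numbers on both slides, so replicate and position on the slide cannot be told apart. Arrays differed in overall brightness: the median ratio of a member's signal to its own mean was 0.939, 1.14, 1.19 and 0.755 on LPS replicates 1 to 4 and 1.12, 1.06, 0.917 and 0.765 on saline replicates 1 to 4. After division by these factors, the SD between mice within a group had a median of 0.19 on the log2 scale over the steady members. The SD between the 3 spots of an array had a median of 0.08. The SD between mice exceeded that between spots in 88 of the 101 steady members. Without the scaling the median SD between mice was 0.33, and it exceeded that between spots in 99. The order of the 3 spots down a block mattered little, with median deviations from -0.02 to 0.01 (log2).

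The spread of the groups and of the code types depended on the scaling between arrays. After scaling, the median SD over the steady members was 0.14 in LPS and 0.23 in saline (log2), and 72 of 101 had the larger SD in saline. Without scaling the medians were 0.34 in LPS and 0.32 in saline, and 45 of 101 had the larger SD in saline. For ORB codes the median SD between mice within a group was 0.37 (22 members), against 0.17 for digit codes (79 members). The scaling factors are medians over all members, most of which have digit codes. When each code type was scaled by its own members, the medians were 0.28 for ORB codes and 0.17 for digit codes, and without scaling they were 0.36 for ORB codes and 0.33 for digit codes. The SD between spots was 0.06 for ORB codes and 0.08 for digit codes. These contrasts were seen in the data and were not tested.

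The smallest SDs between mice belonged to 3024, 3042 and 2281, at 0.03, 0.04 and 0.05 (log2, after scaling). Their SDs between spots were 0.08, 0.17 and 0.05. For 3024 and 3042 the SD between mice was below that between spots. These are the lowest values picked from many members, so they say little about how steady the probes are between mice. Probe 3042 had 3608, 4308, 4469 and 2759.7 intensity units in LPS replicates 1 to 4 and 3896, 3905, 3163 and 2796 in saline replicates 1 to 4. Probe 2281 averaged 17555 ± 3444 in LPS hearts and 18319 ± 3240.2 in saline hearts (mean ± SD, n = 4 each). Before scaling, the brightest array was 1.54, 1.62 and 1.56 times as bright as the dimmest for 3024, 3042 and 2281.

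The 3 largest SDs belonged to 2842, 2986 and ORB1055, at 3.56, 3.08 and 3.03, and come from their single bright spots. The same probes had the largest SDs between spots, 2.33, 2.11 and 2.11. Among steady members, 1755 varied most between mice, with 8696, 9541, 10343 and 3040 intensity units in LPS replicates 1 to 4 and 9107, 21039.7, 23293 and 6865 in saline replicates 1 to 4. Saline replicates 2 and 3 were over 2 times as bright as any other array, and LPS replicate 4 was lowest. The 3 spots agreed on each array, with an SD between spots of 0.04 against 0.70 between mice.

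The smallest SDs between spots belonged to 1310, 2584 and 1755, at 0.04, 0.04 and 0.04. Probe 1310 averaged 12453 ± 2640.5 in LPS hearts and 11933 ± 3332 in saline hearts (mean ± SD, n = 4 each), and probe 2584 averaged 18643 ± 4322 in LPS hearts and 18984 ± 5985 in saline hearts (mean ± SD, n = 4 each). At the other end, 3135 had the largest SD between spots of the steady members, 1.10, and was picked after its values were seen. Its 3 spots had signals of 203, 1984 and 2535 on LPS replicate 2 and of 276, 2577 and 2915 on saline replicate 1. On LPS replicate 4 they had 155, 252 and 975. On the other arrays the 3 spots of 3135 lay within 1.5-fold of each other.

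Saline replicate 4 set the 2 code types apart. Relative to each member's mean log2 signal over the 8 arrays, the median of the 79 steady digit codes was -0.05, 0.25, 0.31 and -0.38 on LPS replicates 1 to 4 and 0.21, 0.09, -0.07 and -0.41 on saline replicates 1 to 4. The median of the 22 steady ORB codes was -0.15, -0.02, 0.23 and -0.24 on LPS replicates 1 to 4 and 0.12, 0.17, -0.24 and 0.11 on saline replicates 1 to 4. On saline replicate 4 the ORB median lay 0.52 above the digit median, and on the other arrays the difference was from -0.27 to 0.13. Of the 79 digit codes, 65 had their lowest saline value on replicate 4 and 1 had its highest there. Of the 22 ORB codes, 7 had their lowest saline value there and 9 their highest.

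The ORB codes did not all behave alike on that array. The 4 steady members with codes starting ORB_1008 had 0.56 to 0.84 times the mean of the other saline arrays on saline replicate 4, near the median of 0.70 for digit codes. The 3 starting ORB_0908 had 1.36 to 2.36 times that mean, and the 2 starting ORB_0608 had 1.27 and 1.54 times. The 8 starting ORB_1209 ranged from 0.65 to 1.57, and the 4 starting ORB_0409 from 0.51 to 1.87, with 2 of them above 1. The remaining ORB code, ORB__0908021_3, had 0.82 times that mean. ORB_0409005, the highest of its series and picked after its values were seen, had 2195, 2850.3, 3889 and 4326 intensity units in LPS replicates 1 to 4 and 3343, 5076, 3425 and 7365 in saline replicates 1 to 4. What the code series stand for is not given in the sources used here.

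The question put to these arrays was which heart small RNAs differ 8 h after LPS. It was fitted with limma over all 1256 probes detected in at least 1 group, on quantile-normalised log2 intensities, and 104 of the 105 members were among them. The threshold used saline values, and the 4 probes bright in 1 spot on a saline array could enter only with a high saline value. The same holds for ORB_0908030, ORB_0908037, ORB_0608014, 1844 and 1994. Their LPS means of 670, 664, 731, 932 and 922 intensity units were under the threshold, and their differences were all negative. A threshold on the LPS mean would leave out 9 members and add 3. The choice of members favoured a negative difference in those 9, so their direction is not independent of it. No member passed a limma adjusted p of 0.05 (0 of 104, with 0% called over all tested probes). The smallest adjusted p was 0.450. At an unadjusted p under 0.05 there were 13 members, 12.5% of the 104, with 10.2% over all tested probes. Of these 13 members, 8 were higher in LPS and 5 lower. Over all tested probes, 5.49% were higher and 4.7% lower at that p. In 2 members the arrays of the groups did not overlap, which is 1.92% of 104 members, with 5.49% over all tested probes. Of these 2 members, 1 was higher and 1 lower. Over all tested probes, 2.63% were higher and 2.87% lower without overlap.

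Leaving out saline replicate 1 gave 2 calls among the members, 3111 and ORB_1008006, with 0.156% called over the 1279 probes tested in that fit. Leaving out any other array, saline replicate 4 included, gave 0. With cyclic loess in place of quantile normalisation 1 member, ORB_1209019, was called, with 0.0796% called over all 1256 probes. The median log2 difference (LPS minus saline) was 0.03 over the members tested and 0.01 over all 1256 probes. Quantile normalisation gives every array the same distribution of values, so a shift common to the bright probes would be largely removed. A median near 0 therefore says little about such a shift. The members' median was 0.08 with no normalisation and 0.09 with cyclic loess. The bright code types share the top ranks, so their medians below are not independent of each other. The difference was positive in 59 members (56.7%) and negative in 45, with 54.1% positive over all tested probes. For 72 of the 101 steady members (71.3%) the 95% interval kept to changes under 1.5-fold, and for 93 (92.1%) to changes under 2-fold. Over all 1256 tested probes the intervals of 1115 (88.8%) kept to changes under 1.5-fold and of 1220 (97.1%) to changes under 2-fold. These shares are not like for like, because the offset of 50 in the background correction shrinks the log2 differences of dim probes. Among the steady digit codes 51 of 79 differences were positive, with a median of 0.05. Among the ORB codes 14 of 22 were negative, with a median of -0.06. The 32 bright IDT and IGN probes had a median of -0.08, with 26 negative.

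ORB_1209019 had the smallest p of the members and, after ORB_1209024, the largest positive difference, 0.99 on the log2 scale (standard error 0.18, adjusted p = 0.450 by limma). Its signal was 2671, 3419.7, 4705 and 2967 intensity units in LPS replicates 1 to 4 and 1710, 2088, 1645 and 1210 in saline replicates 1 to 4. Every LPS array was above every saline array. The normalised log2 intensity was 11.68 ± 0.27 over LPS hearts and 10.69 ± 0.29 over saline hearts (mean ± SD, n = 4 each). ORB_1209024 had the largest positive difference, 1.08 on the log2 scale (standard error 0.45, adjusted p = 0.475 by limma). Its signal was 3204, 3880.3, 10709 and 2288 in LPS replicates 1 to 4 and 1782, 1645, 3136 and 1427 in saline replicates 1 to 4. Replicate 3 was the brightest array in each group for this probe, and LPS replicates 1 and 4 lay near or below saline replicate 3. Without LPS replicate 3 the difference was 0.66, and ORB_1209019, at 0.93, was then the larger.

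Next among the higher members were ORB_1008005, 2245 and 3062. ORB_1008005 had 5562, 6741, 6452 and 2772 intensity units in LPS replicates 1 to 4 and 6441, 3322, 3038 and 2390 in saline replicates 1 to 4, a difference of 0.51 on the log2 scale (standard error 0.25, adjusted p = 0.533 by limma). Probe 3062 followed the same pattern over arrays, with 5166, 5781, 5350 and 2691 in the LPS replicates and 5971, 2973, 2819.7 and 2606 in the saline replicates. In both probes LPS replicate 4 lay with saline replicates 2 to 4, and saline replicate 1 with LPS replicates 1 to 3. Probe 2245 averaged 11754 ± 2801 in LPS hearts and 9389 ± 2588 in saline hearts (mean ± SD, n = 4 each), with a difference of 0.44 on the log2 scale (standard error 0.18, adjusted p = 0.472 by limma). Without saline replicate 4 the difference of 2245 was 0.28.

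The next smallest p among the higher members belonged to smaller differences. ORB_1008006 had 1632, 1968, 2219 and 1305 intensity units in LPS replicates 1 to 4 and 1917, 1388, 1300.3 and 1224 in saline replicates 1 to 4. Its difference was 0.30 on the log2 scale (standard error 0.10, adjusted p = 0.450 by limma), and 0.40 without saline replicate 1 (limma adjusted p = 0.0218). The number of positive differences was 4 of 4 among the steady ORB_1008 codes, 2 of 8 for ORB_1209, 1 of 4 for ORB_0409, 0 of 3 for ORB_0908 and 0 of 2 for ORB_0608, a description made after the values were seen. Probe 2005 had 5974, 8019.7, 7655 and 4519 in LPS replicates 1 to 4 and 6530.3, 5657, 5218 and 4109 in saline replicates 1 to 4. Its difference was 0.28 on the log2 scale (standard error 0.10, adjusted p = 0.450 by limma).

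ORB_0908030 had the largest negative difference among these members, which were chosen by their saline level. Its LPS mean of 670 was under the threshold, as was that of ORB_0908037 (664), so both entered only through their saline values. ORB_0908030 had 628, 865, 729 and 459 intensity units in LPS replicates 1 to 4 and 1021, 1169, 1027 and 2533 in saline replicates 1 to 4. All LPS arrays lay below all saline arrays, and saline replicate 4 was over 2 times as bright as the other saline arrays. The difference was -0.93 on the log2 scale (standard error 0.35, adjusted p = 0.472 by limma), and -0.56 without saline replicate 4. ORB_0908037 had the same shape, with 543, 798, 698 and 615 in LPS replicates 1 to 4 and 867, 1056, 906 and 1998 in saline replicates 1 to 4. Its groups did not overlap before normalisation but did after it, and its difference was -0.69, or -0.35 without saline replicate 4.

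Probe 1755, whose arrays are given above, had a difference of -0.85 on the log2 scale (standard error 0.44, adjusted p = 0.540 by limma), and -0.55 without saline replicate 3. Its standard error is over 2 times that of ORB_1209019. The other 2 of the 5 lowest differences were -0.70 for 2986 and -0.67 for 2842, both from 1 bright spot. With the median of the 3 spots in place of the mean they were -0.05 and 0.07. For ORB1055 the values were -0.66 with the mean of spots and near 0 with the median.

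In the lower direction, 3 members with smaller differences had the smallest p. Probe 3111 had 34287, 40584, 45577 and 28740 intensity units in LPS replicates 1 to 4 and 40799.7, 45525, 36172 and 41157 in saline replicates 1 to 4. Its normalised log2 intensity was 15.11 ± 0.03 over LPS hearts and 15.42 ± 0.19 over saline hearts (mean ± SD, n = 4 each), a difference of -0.31 on the log2 scale (standard error 0.09, adjusted p = 0.450 by limma). Without saline replicate 1 the difference was -0.38 (limma adjusted p = 0.0218). It was smaller under other scalings, at -0.15 with no normalisation, -0.15 with cyclic loess and -0.18 with median scaling, and 3111 was not called in those fits. Probe 2209 had 3886, 4247, 5303 and 3334 in LPS replicates 1 to 4 and 5672, 7282, 5102 and 5011 in saline replicates 1 to 4. LPS replicate 3 alone reached the saline range, and the difference was -0.42 on the log2 scale (standard error 0.13, adjusted p = 0.450 by limma). Probe 2967 averaged 1447 ± 308 in LPS hearts and 1929.6 ± 217 in saline hearts (mean ± SD, n = 4 each), with a difference of -0.43 on the log2 scale (standard error 0.14, adjusted p = 0.450 by limma).

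The Ncode control spots had mean foregrounds of 9170 to 11402 on replicates 1 and 3 of both slides and of 68.8 to 73.2 on the other arrays. Within the arrays with and without that signal, the log2 difference was 0.46 and 0.57 for ORB_1008005, 0.32 and 0.56 for 2245, and -0.52 and -1.34 for ORB_0908030. It was -0.16 and -0.45 for 3111, -0.30 and -0.54 for 2209, and 1.24 and 0.92 for ORB_1209024. Other members changed sign between these sets of arrays, among them 1315 (-0.21 with the signal and 0.77 without) and 3135 (0.69 with the signal and -1.07 without). The spots of 3135 were uneven on LPS replicates 2 and 4, which lacked the signal, and on saline replicate 1, which had it. The part of these uneven spots in the 2 differences of 3135 was not tested. No member was called with that signal as a block, within the arrays that had it or within those that lacked it. The fits within either set held few arrays per group, so the absence of calls there says little. The part of the Ncode signal in the differences was not tested.

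The authors' deposited table of processed intensities held 88 of the 105 members among its 318 probes, and none of the 4 bright in 1 spot. In that table limma called 9 members higher in LPS (4.09% called higher over all its probes) and 7 lower (16.7% called lower over all its probes). The median log2 difference of the 88 members was 0.11 in the table, against 0.04 for the same probes in the scan. Over all 318 probes the table's median was -0.06. Once the table was quantile normalised, 2 members were called, both higher, with 2.2% called over all its probes.

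The brightest members sat at a common top value in the table. On LPS replicates 1 to 4, 19, 16, 18 and 13 members lay within 1% of the array's highest value, and 5, 4, 1 and 2 on saline replicates 1 to 4. Of the 7 members called lower in the table, 6 were at that top value on at least 1 array, and these are 1022, 3111, ORB_1008002, 2733, 1044 and 3024. Probe 1022 had 50031 ± 9238 intensity units on LPS arrays and 86737 ± 7425 on the saline arrays (mean ± SD, n = 4 each) in the authors' deposited table, against scanner means of 49466 in LPS and 50483 in saline. The 21 members at the top value had a median log2 difference of -0.31 in the table, against 0.03 in the scan. Among the 67 members below it, 8 were called higher and 1, ORB_0908030, was called lower. Their median difference was 0.20 in the table, against 0.05 in the scan.

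Members called higher in the table included ORB_1209019, ORB_1209024, 2245 and 2005. ORB_1209019 had the smallest adjusted p of the members there, with a log2 difference of 1.19 (limma adjusted p = 0.00656). It had 7782 ± 972 intensity units on LPS arrays and 3434 ± 535 on the saline arrays (mean ± SD, n = 4 each) in the authors' deposited table. ORB_1209024 had 10849.5 ± 6188 intensity units on LPS arrays and 4429.8 ± 1931 on the saline arrays (mean ± SD, n = 4 each) in the authors' deposited table, a log2 difference of 1.23 (limma adjusted p = 0.0399). Probe 2245 had 34254 ± 2740.4 intensity units on LPS arrays and 19584 ± 4761 on the saline arrays (mean ± SD, n = 4 each) in the authors' deposited table, a log2 difference of 0.84 (limma adjusted p = 0.0171). For 2005 the log2 difference was 0.52 (limma adjusted p = 0.0265). For all 9 members called higher, the scanner values differed in the same direction. Their median was 0.66 in the authors' deposited table, and 0.28 from the scan. Of the 7 called lower, 4 were negative in the scan. Their median was -0.69 in the authors' deposited table, and -0.03 from the scan. Both sets of values come from the same arrays and share the slide.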

How the data were processed

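Small RNA from 8 mouse hearts, 4 per group and 1 array each, was labelled with a single dye. Blocks of 6 per array, groups and replicate numbers follow the sample labels, and the series design gives 8 separate mice. Per the file headers, the deposited intensity values are median pixels of spot and local background, read at 532 nm and exported by GenePix Pro 4.1.1.4 without normalisation. Spot flags, another deposited column per the file headers, removed no spot. The authors' table holds processed intensity on a linear scale, with its steps not given in the sources used here.

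Signals are foreground minus local background, averaged over 3 spots. Differences were fitted in limma 3.58.1 (R 4.3.3; lmFit and eBayes) after normexp background correction (offset 50), averaging of the log2 spots and quantile normalisation. Probes entered when at least 2 of 3 spots passed the 95th percentile of the empty spots on all 4 arrays of a group. P-values were adjusted by Benjamini-Hochberg over all 1256 tested probes, and the calculation was tested on simulated data. For the SD between mice, each array was divided by its median ratio over the members, and signals under 16 were set to 16. The number of arrays limits the precision. The tested choices concern background, normalisation, filter, spot summary, blocks, left-out arrays and the choice of members.

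Named are the 10 brightest members, the 5 highest and 5 lowest differences, the 3 smallest p in each direction, the extremes of spread between mice and spots, the 3 largest rank changes and the 3 probes on each side of the threshold. Members and lists were chosen with earlier results of these data known.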

Additional observations from a re-analysis of the deposited data

Results flagged for a closer look

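In 7 of 70 groups of 4 values examined, 1 array stood far from the other 3. Chance marks about 1 in 20 groups of values not chosen for their spread, but these probes were chosen by their saline level, spread or difference, so neither the number nor the side can be read against chance. For 3 probes the high value was the single bright spot described above: 14281 for 2842 on saline replicate 4, 8737 for 2986 on saline replicate 2 and 6775 for ORB1055 on saline replicate 1. For 3 ORB codes it was saline replicate 4, with 2533 for ORB_0908030 (the others 1021, 1027 and 1169), 1998 for ORB_0908037 (the others 867, 906 and 1056) and 1369 for ORB_0608014 (the others 883, 894 and 894). Probe 3062 had 5971 on saline replicate 1 (the others 2606, 2820 and 2973).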

How the results depend on the processing

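The median of spots as the basis of the choice and the omission of the 4 probes bright in 1 spot are alternatives chosen after seeing the data, as is scaling each code type by its own members, which gave a median SD between mice of 0.18. Of 28 alternatives, 24 left the number of called members at 0, as in the reported fit. Part of these could not do otherwise. Other choices of members recount the reported fit, where no probe was called, and the exact permutation test has too few splits of 8 arrays. The fits within arrays with or without the Ncode signal had few arrays per group. The number of called members became 1 with cyclic loess (ORB_1209019, with 0.0796% called over all 1256 probes). It was 16 in the authors' table and 2 in that table after quantile normalisation, and the cause was not tested. With 1 array left out there were 0 to 2 calls, 2 of them without saline replicate 1. The members' median log2 difference was 0.03, 0.11 in the authors' table and 0.01 to 0.07 with each array left out. It was 0.09 with cyclic loess, 0.08 with no normalisation and 0.05 with median scaling. With the replicate block the count was 0 and the median difference 0.03. The deviations of same-numbered arrays correlated at 0.44, -0.09, 0.14 and 0.35, and since 1 value is under 0.1 the replicate numbers were not treated as pairs.

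The members' share of signal (LPS 53.5%, saline 52.2%) was 49.8% in saline with foreground alone, where the background of dim probes adds to the total, and 49.5% in saline with a threshold of 2000, which keeps 69 members. With a smaller total it was higher by construction: 74.6% in LPS and 72.9% in saline over probes with no saturated spot, and 65.0% in LPS and 64.3% in saline over probes of the same code types. Leaving out each array gave 52.5% to 55.2% in LPS and 51.3% to 53.0% in saline. The rank correlation of the group means was 0.957, 0.983 with the median of spots and 0.938 to 0.964 with each array left out. The median SD between mice was 0.19 (log2), 0.33 without scaling between arrays and 0.17 to 0.20 with each array left out. A threshold on the LPS mean kept 96 of the members and added 3. Of the 32 named probes in the fit, 16 changed sign under at least 1 alternative. Among the 16 named for their difference or p or bright in 1 spot, 3 changed sign. Probe 3111, at -0.31, was 0.036 in the quantile-normalised table. Probe 2842, at -0.67, was 0.068 with the median of spots, 0.095 within arrays with the Ncode signal and -0.94 to 0.084 with each array left out (0.084 without saline replicate 4). ORB1055, at -0.66, was -0.89 to 0.0093 with each array left out (0.0093 without saline replicate 1). Probe ORB_1209019 ranged from 0.88 to 1.19. Signals of the 5 probes saturated in all spots are not measurable, so the brightest part of the array lies outside these results.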
